A study of Mus musculus with 12 samples.

Results

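Histone H2A, one of the 4 core histones around which DNA is wound, is supplied in bulk by a family of nearly identical genes, many of them in the Hist1 cluster on mouse chromosome 13. These genes have no introns, are read mainly while a cell copies its DNA, and give messages that end in a short stem-loop bound by the stem-loop binding protein Slbp in place of a poly(A) tail. Between them they make H2A proteins that are the same or nearly so, so the amount of H2A message is known as a mark of dividing cells, which in the nose include the basal cells that renew the epithelium.

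The rows described here are 8 gene models of the deposited count table that lie on the strand opposite to Hist1 H2A genes, out of 55487 rows. They are Gm44454 (opposite Hist1h2ak), Gm44297 (opposite Hist1h2af), Gm44350 (opposite Hist1h2ac), Gm44484 (opposite Hist1h2ab), Gm44346 (opposite Hist1h2an), Gm44394 (opposite Hist1h2ae), Gm44486 (opposite Hist1h2ag) and Gm44367 (opposite Hist1h2ai). They were chosen by their day 5 against vehicle values, that is with those levels and fold changes known, so every value of that comparison is given as a description and supports nothing. All 8 passed the filter on low counts, which a row could pass through the day 5 libraries alone.

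The libraries came from nasal tissue of male C57BL/6 mice of 6 weeks, labelled as epithelium, with 4 libraries each for KDP20 at day 5 (replicates 5, 6, 7 and 8), KDP20 at day 10 (replicates 1, 2, 3 and 5) and PBS vehicle at day 10 (replicates 2, 4, 5 and 6). KDP20 is the treatment name in the labels, and the series title speaks of diesel particles. No vehicle library carries day 5, so exposure and day differ together in day 5 against vehicle. In such bulk tissue, fewer cells of a type and less RNA per cell cannot be told apart.

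Depth ran from 1658420 to 3227138 counts. Day 10 replicates 2, 3 and 5 stood apart from the other 9 libraries. The row CT010467.2 took 17.9% to 25.5% of their counts, against 11.2% in day 10 replicate 1, 9.69% to 12.6% at day 5 and 7.25% to 10.1% in vehicle. Their log2 level also climbed with GC content, by 0.19 to 0.35 for every 10 percentage points, where the other 9 libraries had slopes at or below -0.027. GC content matters for the H2A rows, which hold 66.7% to 68.1% G and C against a median of 50% over the tested rows. Of olfactory neuron genes, which mark the sensory part of the nose, 6 of 12 had an own row with enough counts to test, with summed levels of 268 to 402 CPM (counts scaled to the same library size) at day 5, 279 to 352 CPM at day 10 and 250.2 to 367 CPM in vehicle. Opposite rows were tested for 3 of these 12 genes, under the names Mppe1, Cenpo and Chtf18. They summed to 8623 to 11536 CPM at day 5, 8756 to 10392 CPM at day 10 and 8697 to 11931 CPM in vehicle.

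In GENCODE M21, on the mm10 build, each of the 8 rows carries the type miRNA and lies wholly inside the 390-base coding sequence of its H2A gene, as the exact antisense of that stretch. Of the 8, 6 cover bases 246 to 383 of the coding sequence, while Gm44346 and Gm44297 cover bases 204 to 344. The type is a label of the annotation, and the table does not show whether any small RNA was made. The sequences are shown because they decide how far the 8 rows can be told apart. Gm44486 stands for Gm44367, Gm44394, Gm44350 and Gm44484, whose 138 bases are identical to its own, and the capitals mark the bases at which a row differs from its closest partner.
Gm44486, chr13:22042545-22042682, plus strand, 5′ to 3′: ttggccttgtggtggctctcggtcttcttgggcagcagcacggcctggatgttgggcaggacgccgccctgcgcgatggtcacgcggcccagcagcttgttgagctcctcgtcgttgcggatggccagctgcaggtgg
Gm44454, chr13:21753445-21753582, plus strand, 5′ to 3′: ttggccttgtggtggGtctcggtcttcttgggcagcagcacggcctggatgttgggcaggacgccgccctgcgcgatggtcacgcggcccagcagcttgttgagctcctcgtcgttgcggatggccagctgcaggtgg
Gm44346, chr13:21786875-21787015, plus strand, 5′ to 3′: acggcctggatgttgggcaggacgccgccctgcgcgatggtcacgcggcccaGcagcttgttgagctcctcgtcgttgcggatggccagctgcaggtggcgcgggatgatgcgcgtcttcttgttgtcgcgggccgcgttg
Gm44297, chr13:23534114-23534254, minus strand, 5′ to 3′: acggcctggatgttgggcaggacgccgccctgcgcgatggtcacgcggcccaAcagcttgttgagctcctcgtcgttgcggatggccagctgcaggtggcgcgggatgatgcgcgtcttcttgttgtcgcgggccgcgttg

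All 8 rows share bases 246 to 344 of the coding sequence. Of these 99 bases, 98 are the same in every row, and at the remaining base Gm44297 alone differs. The full coding sequences of the 8 H2A genes were 96.4% to 99.0% identical over their 28 pairs. Of the 50-base stretches within a row, 54.3% in Gm44297 and 18.0% in Gm44454 occur in no other GENCODE gene, against 0% in the other 6. It is unknown how reads matching several of these copies were counted, so the split of counts among all 8 rows is uncertain. For Gm44297 and Gm44454 this concerns the stretches that also occur in other genes, and for the other 6 it concerns every stretch.

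Of H2A genes and pseudogenes with a Hist1 name, 15 have such a row, all in the cluster but Hist1h2al, which lies elsewhere on chromosome 13, and counts were spread unevenly among them. The 8 rows held 129 to 3348 counts over the 12 libraries, while the other 7 held 0 to 58 and were too low to test. Gm44359, opposite Hist1h2ad, had 58 counts and Gm19658, opposite Hist1h2ao, had 10, although both cover the same span of the coding sequence as Gm44486, which had 241.

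**Figure D1:**
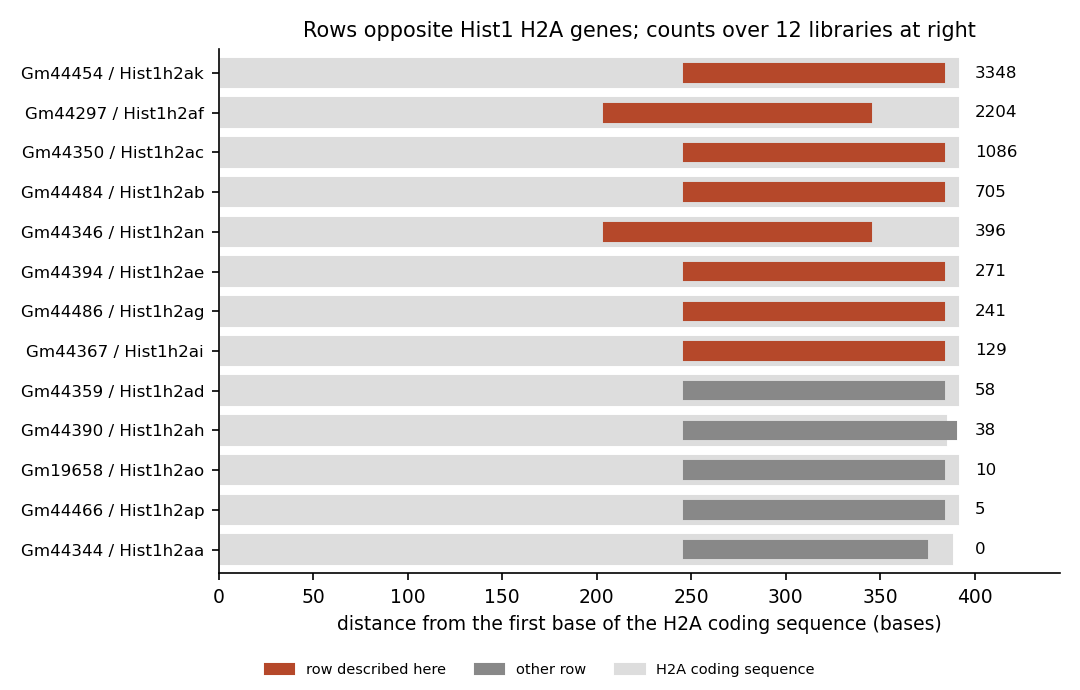
Position of the rows opposite 13 Hist1 H2A coding genes, by distance in bases from the first base of the coding sequence (pale bars), with each row's counts over 12 libraries at the right. The 8 rows described here (coloured) hold 129 to 3348 counts and the others (grey) 0 to 58, with nearly the same span.

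The map by distance from the first coding base places high and low rows over the same part of the gene. Counts thus differed between rows of almost one position and sequence.

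The own rows of the H2A genes, on the coding strand, held far fewer counts than the rows opposite to them. Hist1h2af had 32 counts in its own row, listed as H2ac10, against 2204 in Gm44297, a ratio of 68.9. Hist1h2ak (H2ac15) had 62 counts against 3348 in Gm44454, a ratio of 54.0. At the other end, Hist1h2ae (H2ac8) had 226 counts against 271 in Gm44394, a ratio of 1.20. More counts opposite a gene than in its own row were not particular to H2A genes. At day 5, Cyp2f2 averaged 83.3 CPM in its own row and 26729 CPM in Gm15883 opposite to it. Krt5 had 5.42 CPM against 712 CPM in Gm44323. Other genes went the other way, such as Gins2 with 1903 CPM against 52.6 CPM in Gse1, itself a named gene. The strand setting of the counting is not given in the sources used here, and without it reads from an H2A gene and from its antisense row cannot be told apart. The same limit holds for the other pairs named here.

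**Figure D2:**
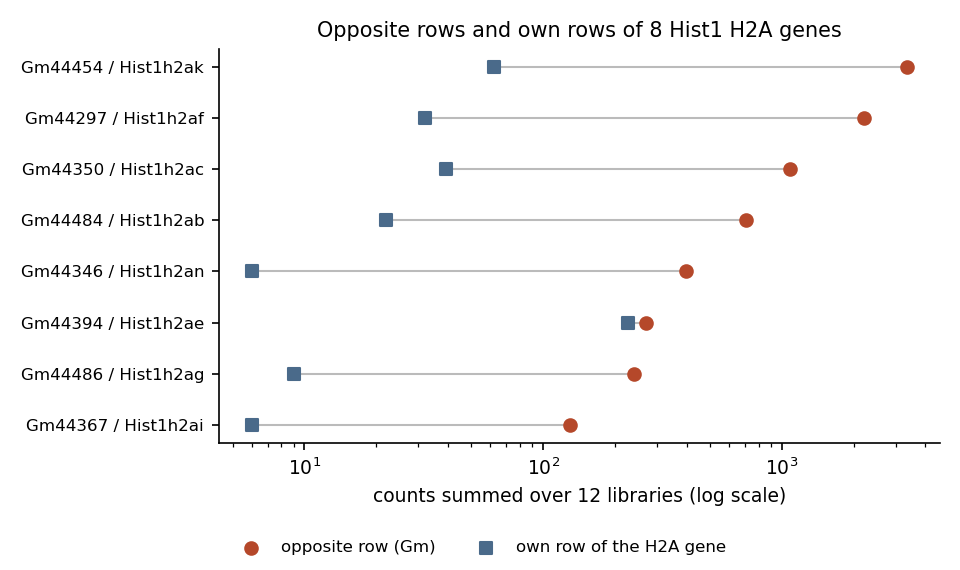
Counts summed over 12 libraries on a log axis for 8 Hist1 H2A genes, with the opposite row as a circle and the gene's own row as a square. The circle lies to the right of the square for every gene, by 1.20 times for Hist1h2ae and by 68.9 times for Hist1h2af.

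In the plot of own and opposite rows, Hist1h2ae stands out by its own row, which is the one Hist1 H2A own row with enough counts to test. Of the 8 H2A genes, 4, namely Hist1h2ag, Hist1h2ae, Hist1h2ac and Hist1h2ab, carry in their annotated transcript, by a search with the histone stem-loop consensus, the stem-loop that ends histone messages. It is shown with the paired stem in capitals, as it is a feature of replication-dependent histone genes. The annotated transcripts of Hist1h2af, Hist1h2ak, Hist1h2an and Hist1h2ai hold little beyond the 390-base coding sequence. The search therefore could not show whether these 4 genes have the stem-loop.
Stem-loop of Hist1h2ag, Hist1h2ae, Hist1h2ac and Hist1h2ab, sense strand, 5′ to 3′: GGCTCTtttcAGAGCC

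Each H2A gene has a promoter in RefSeq (GRCm38.p6), and all 8 were matched. Their 250 bases before the start site were searched on both strands for CCAAT, the letters of the CCAAT box read by NF-Y, and for TATAAA, a common form of the TATA box. CCAAT was found in 8 of 8, against 33.8% of 32851 promoters of the same length. TATAAA was found in 4 of 8 (Hist1h2ab, Hist1h2ac, Hist1h2ae and Hist1h2an), against 12.4% of all, and both motifs in the same 4, against 4.40%. A match describes the letters and is no evidence that a factor binds there. The promoters of Hist1h2ab, with both motifs, and of Hist1h2af, with CCAAT alone, are shown with the matches on either strand in capitals.
Hist1h2ab promoter, chr13:23750838-23751087, plus strand, 5′ to 3′: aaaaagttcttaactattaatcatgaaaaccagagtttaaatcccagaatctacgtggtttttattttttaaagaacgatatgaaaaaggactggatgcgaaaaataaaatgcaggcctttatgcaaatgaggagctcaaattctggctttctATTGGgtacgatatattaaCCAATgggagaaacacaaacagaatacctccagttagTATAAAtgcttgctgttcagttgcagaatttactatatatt
Hist1h2af promoter, chr13:23533625-23533874, plus strand, 5′ to 3′: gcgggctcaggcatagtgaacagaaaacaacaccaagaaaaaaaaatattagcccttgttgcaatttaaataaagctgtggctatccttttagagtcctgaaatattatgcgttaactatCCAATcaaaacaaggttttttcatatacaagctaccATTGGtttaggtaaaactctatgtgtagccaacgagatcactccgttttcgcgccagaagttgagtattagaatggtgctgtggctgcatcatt

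At day 5, rows opposite Hist1 H2A genes were higher than in vehicle for all 8 genes, and by day 10 they lay near the vehicle level. Their summed level was 528 ± 96.8 CPM at day 5, 243 ± 31.4 CPM at day 10 and 219.9 ± 20.1 CPM in vehicle (SD, n = 4 each). The day 5 sums ran from 442 to 654 CPM, above every day 10 sum (207 to 284 CPM) and every vehicle sum (196 to 245 CPM). Here and below, CPM is scaled with TMM factors.

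Gm44297 lies opposite Hist1h2af and is the row with the most sequence of its own. It had 158, 132, 139.7 and 180.4 CPM at day 5, 61.2, 71.4, 54.6 and 78.2 CPM at day 10, and 43.2, 39.4, 43.6 and 54.8 CPM in vehicle. The lowest day 5 library was above every library of the other groups, while the day 10 and vehicle ranges met at a single pair of libraries. The log2 fold change of day 5 over vehicle was 1.76 (SE 0.16), the largest of the 8.

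Gm44454, opposite Hist1h2ak, was the most counted row. It had 203, 156, 180.3 and 228 CPM at day 5, 86.9, 109.8, 94.8 and 129.6 CPM at day 10, and 83.8, 105, 103 and 100.1 CPM in vehicle. Every day 5 library stood above the rest, and the day 10 and vehicle libraries overlapped. Its log2 fold change at day 5 over vehicle was 0.97 (SE 0.15), and its difference from that of Gm44297 was not tested.

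Gm44346, opposite Hist1h2an (chr13:21786826-21787218), shares its span with Gm44297 and differs from it at 1 of 141 bases. It had 26.3, 20.2, 23.4 and 38.8 CPM at day 5, 8.74, 6.18, 11.3 and 11.4 CPM at day 10, and 8.30, 10.9, 6.09 and 13.6 CPM in vehicle. Again no day 5 library overlapped with the others, and the log2 fold change of day 5 over vehicle was 1.46 (SE 0.29).

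Of the 5 rows with one common sequence, Gm44350 (chr13:23683535-23683672, opposite Hist1h2ac) had the most counts. It had 63.7, 59.6, 47.2 and 96.2 CPM at day 5, 39.6, 28.1, 18.2 and 30.3 CPM at day 10, and 29.1, 25.2, 39.1 and 37.6 CPM in vehicle. Day 5 replicate 8 was well above the other day 5 libraries, and even the lowest of them exceeded the other groups. The log2 fold change of day 5 over vehicle was 1.04 (SE 0.23).

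Gm44484 (chr13:23751378-23751515, opposite Hist1h2ab) had 51.8, 33.2, 37.8 and 60.0 CPM at day 5, 20.1, 15.1, 16.9 and 24.0 CPM at day 10, and 15.4, 20.1, 15.7 and 19.9 CPM in vehicle. The day 5 libraries lay apart from both other groups, with a log2 fold change over vehicle of 1.35 (SE 0.23).

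Gm44394 (chr13:23570726-23570863, opposite Hist1h2ae) had 18.7, 18.3, 15.9 and 21.7 CPM at day 5, 10.8, 6.18, 5.02 and 6.85 CPM at day 10, and 11.2, 3.64, 6.60 and 4.08 CPM in vehicle. Vehicle replicate 2 was high among its group but below every day 5 library, and the log2 fold change of day 5 over vehicle was 1.56 (SE 0.35).

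Gm44486, opposite Hist1h2ag, had 19.5, 16.4, 16.8 and 20.2 CPM at day 5, 7.72, 4.12, 3.77 and 0 CPM at day 10, and 3.73, 5.31, 6.09 and 8.15 CPM in vehicle. Day 10 replicate 5 held no count for it, where 3 counts would have been 1.47 CPM of the unscaled total. The day 5 libraries were all above the rest, with a log2 fold change over vehicle of 1.65 (SE 0.42).

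Gm44367 (chr13:21716667-21716804, opposite Hist1h2ai) was the least counted row, and its groups overlapped. It had 11.04, 5.77, 1.87 and 8.57 CPM at day 5, 4.63, 2.06, 2.51 and 3.43 CPM at day 10, and 1.66, 6.71, 2.54 and 6.79 CPM in vehicle. Day 5 replicate 7 was lower than all but 1 of the other 11 libraries, and the log2 fold change of day 5 over vehicle was 0.59 (SE 0.52).

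**Figure D3:**
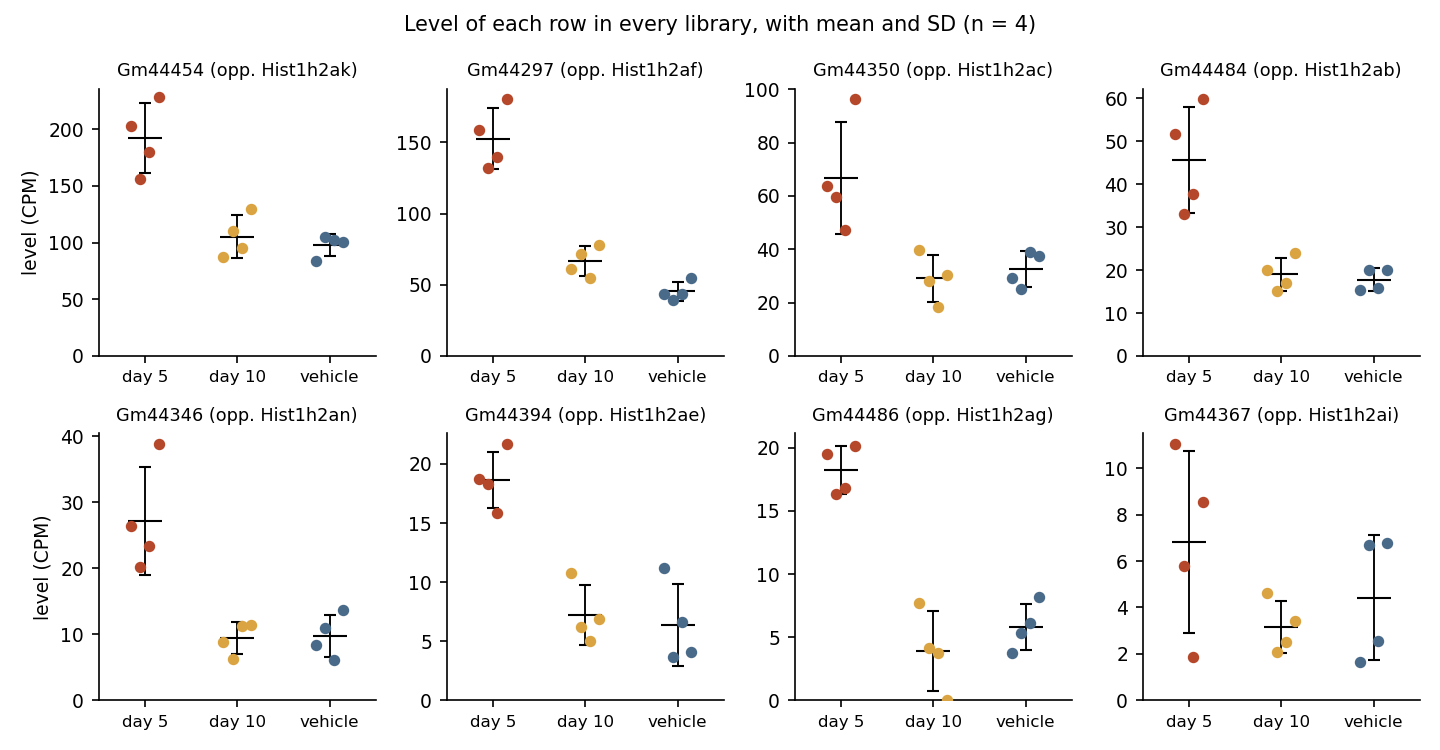
Level in CPM of each of the 8 rows in every library (points), by group from day 5 through day 10 to vehicle, with the mean and SD (bars, n = 4) and a separate scale per row starting at 0. For 7 of the 8 rows every day 5 point lies above every day 10 and vehicle point, and for Gm44367 the groups overlap.

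The plots of each row by library show day 5 with the highest mean in every row, at very different levels, while day 10 lay above vehicle in some rows and below it in others. Per kilobase of row, Gm44454 stood at 1391 CPM at day 5, 763 CPM at day 10 and 708 CPM in vehicle, and Gm44297 followed with 1083, 471 and 321 CPM. Gm44350, Gm44484 and Gm44346 came next in each group, with 483, 331 and 193 CPM per kilobase at day 5. Gm44394, Gm44486 and Gm44367 were lowest in each group, with vehicle means of 46.2, 42.2 and 32.1 CPM per kilobase that did not differ beyond their spread.

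The rows also differed in how much of the sum each held. Gm44297 took 29.1% ± 1.20 of the counts of the 8 rows at day 5, 27.2% ± 1.67 at day 10 and 20.6% ± 1.95 in vehicle (SD, n = 4 each). Gm44454 took 36.5% ± 1.82 at day 5, 43.2% ± 4.65 at day 10 and 44.5% ± 3.40 in vehicle. The range of Gm44297 in vehicle, 18.3% to 22.4%, did not meet that at day 5, 27.6% to 30.2%, or that at day 10, 25.5% to 29.4%. These shares use the levels known when the rows were chosen and are a description. They are parts of 1 sum, so a higher share of 1 row goes with lower shares of others. The shares were not tested and were not corrected for GC content. Like the levels per kilobase, they rest on a split of counts among the 8 rows that is uncertain.

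Among the day 5 libraries, replicate 8 had the highest level for 7 of the 8 rows, and replicate 6 the lowest for 5. Over the 12 libraries, log2 levels of 2 rows had a median Pearson r of 0.72 (0.24 to 0.96 over 28 pairs), values that share the library depth and include the difference between groups. After subtraction of group means the median was 0.31 (-0.45 to 0.79), and among the 5 most counted rows it was 0.54 (0.12 to 0.79).

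In the edgeR quasi-likelihood fit over all 13181 tested rows, 6 of the 8 had an adjusted p under 0.05 at day 5 against vehicle, all higher, where 0.66% of tested rows were called in either direction and 0.41% higher. The groups did not overlap for 7 of the 8, where 5.86% of tested rows were higher without overlap. The members' median log2 fold change was 1.41, against -0.03 over all tested rows and 0.17 over 3981 tested rows that lie opposite protein-coding genes, of which 1.33% were called. Since the 8 rows were picked with this comparison known, these counts describe the choice.

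Day 10 against vehicle is matched on day and was not used to choose the rows, although it shares the vehicle libraries with the comparison that was. Of the 8 rows, Gm44297 alone was called. It averaged 66.4 ± 10.5 CPM at day 10 and 45.3 ± 6.64 CPM in vehicle (SD, n = 4 each), a log2 fold change of 0.56 (SE 0.16, 95% interval 0.23 to 0.88) with an edgeR adjusted p of 0.0423. This 1 call of 8 compares with 7.08% of tested rows called in either direction and 3.93% called higher, and with 12.8% called among rows opposite protein-coding genes. The call did not hold after a GC correction of each library, with a log2 fold change of 0.14 and an edgeR adjusted p of 0.694, nor when the share of CT010467.2 entered the fit (0.31, edgeR adjusted p 0.999). It was also lost when any of vehicle replicates 2, 4 and 5, day 5 replicates 5, 6 and 7 or day 10 replicates 2 and 5 was left out, with log2 fold changes of 0.47 to 0.56 and edgeR adjusted p of 0.0511 to 0.166.

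The other 7 rows passed no test at day 10 against vehicle, with edgeR adjusted p from 0.554 to 0.943. Their log2 fold changes ran from -0.54 for Gm44486 to 0.22 for Gm44394, and over all 8 rows 4 lay above 0 and 4 below, with a median of 0.02 against -0.01 over all tested rows. No row had groups without overlap, where 9.98% of tested rows did. Intervals were narrowest for Gm44454, whose log2 fold change of 0.11 had a 95% interval of -0.19 to 0.41. For Gm44486, with few counts, the interval ran from -1.52 to 0.44.

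Against day 5, all 8 rows were lower at day 10, with log2 fold changes from -2.18 for Gm44486 to -0.87 for Gm44454 and a median of -1.23, against 0.01 over all tested rows. Of the 8, 7 had an edgeR adjusted p under 0.05, where 10.1% of tested rows were called (18.9% of rows opposite protein-coding genes) and 5.49% called lower, and the same number had groups without overlap, where 6.76% of tested rows were lower without overlap. This comparison shares the day 5 libraries that chose the rows and is also a description.

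**Figure D4:**
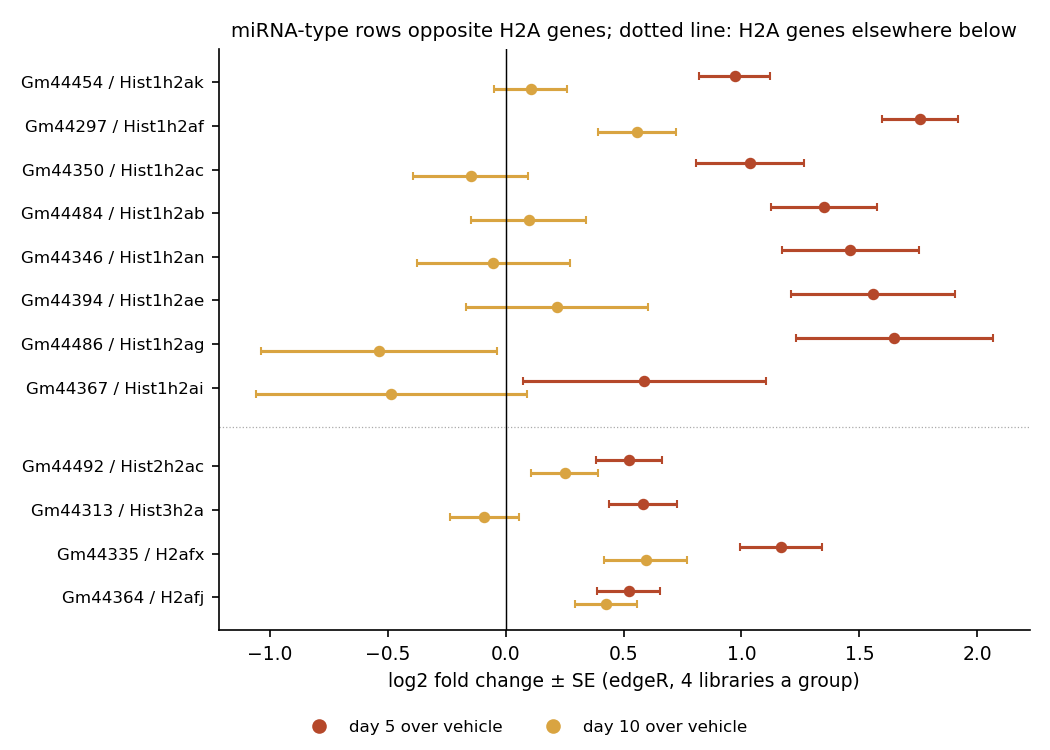
Log2 fold change with SE (edgeR, 4 libraries a group) of day 5 over vehicle and day 10 over vehicle for the 8 rows opposite Hist1 H2A genes, above the dotted line, and for the 4 tested rows of the same type opposite H2A genes elsewhere, below it. The 8 rows lie between 0.59 and 1.76 at day 5 and between -0.54 and 0.56 at day 10.

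Hist1h2ae is the 1 gene of the 8 whose own row and opposite row were both tested. Gm44394 is 1 of 5 rows with an identical sequence, and the strand setting is not given. The values of the 2 rows therefore cannot be read as the 2 strands of this gene. H2ac8 had 5.52, 10.1, 7.94 and 9.57 CPM at day 5, 12.9, 9.61, 10.7 and 12.6 CPM at day 10, and 9.54, 6.15, 8.12 and 7.70 CPM in vehicle. The day 5 and vehicle libraries overlapped throughout, with a log2 fold change of 0.08 (SE 0.33, edgeR adjusted p 0.940), where Gm44394 on the other strand had 1.56. Day 10 libraries were all above vehicle, with a log2 fold change of 0.55 (SE 0.32), which did not pass the test (edgeR adjusted p 0.311).

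The own rows of the other 7 H2A genes were not tested, and their counts are given as totals over 4 libraries. H2ac10, the own row of Hist1h2af, had 24 counts at day 5, 4 at day 10 and 4 in vehicle. H2ac15 (Hist1h2ak) had 38 at day 5, 10 at day 10 and 14 in vehicle, and H2ac4 (Hist1h2ab) had 16, 4 and 2 in the same order. H2ac6 (Hist1h2ac) had 18 at day 5, 4 at day 10 and 17 in vehicle. H2ac13 (Hist1h2ai) had 4, 2 and 0 in the same order. H2ac11 (Hist1h2ag), with 2, 2 and 5, and Hist1h2an, with 2, 0 and 4, were highest in vehicle. Summed per library, the 7 own rows held 16 to 30 counts at day 5, 3 to 10 at day 10 and 7 to 18 in vehicle, so that the day 5 and vehicle ranges overlapped.

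Histone H2B, the partner of H2A in the nucleosome, is coded by genes that often share a promoter region with an H2A gene. The nearest Hist1 H2B gene on the other strand lay 176 to 296 bases from 6 of the 8 H2A genes. Own rows of these 8 H2B genes held 0 to 76 counts over the 12 libraries, none had an opposite row in the annotation, and none was tested.

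H2A genes outside Hist1 have opposite rows of the same kind. Over the 99 bases shared by the 8 rows, H2afx, which codes for the variant that is phosphorylated at DNA breaks, and Hist3h2a each differ at 1 base, H2afj at 3 and Hist2h2ac at 6. Gm44335, opposite H2afx, averaged 112 ± 15.9 CPM at day 5, 75.0 ± 13.0 CPM at day 10 and 50.04 ± 10.7 CPM in vehicle (SD, n = 4 each). It rose at day 5 by a log2 fold change of 1.17 (SE 0.17, edgeR adjusted p 0.00237) and at day 10 by 0.59 (SE 0.18, edgeR adjusted p 0.0427), with no overlap with vehicle on either day. The day 10 call of Gm44335, like that of Gm44297, was lost after the GC correction (0.17, edgeR adjusted p 0.650) and with the share of CT010467.2 in the fit (0.29, edgeR adjusted p 0.999). It was also lost from the 8 compared libraries alone (edgeR adjusted p 0.0786) and without any 1 of vehicle replicates 2, 4 and 6, day 5 replicates 5, 6 and 7 or day 10 replicates 2, 3 and 5 (0.47 to 0.65, edgeR adjusted p 0.0501 to 0.186).

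Gm44313, opposite Hist3h2a, averaged 296 ± 51.0 CPM at day 5, 186 ± 16.3 CPM at day 10 and 198 ± 36.04 CPM in vehicle (SD, n = 4 each). Its log2 fold change of 0.58 at day 5 (SE 0.14) missed the threshold with an edgeR adjusted p of 0.0560, as did 0.52 for Gm44492, opposite Hist2h2ac (edgeR adjusted p 0.0708), and 0.52 for Gm44364, opposite H2afj (edgeR adjusted p 0.0632). All 3 were called at day 5 by DESeq2 (adjusted p 0.00611, 0.00965 and 0.00646 in that order) and by limma-voom (adjusted p 0.0294, 0.0445 and 0.0269). Gm20632 and Gm20633, opposite the twin genes Hist2h2aa2 and Hist2h2aa1, had 0.47 and 0.38 at day 5, with edgeR adjusted p of 0.138 and 0.271. The plot of fold changes shows, beside the 8 Hist1 rows, the 4 tested rows of type miRNA elsewhere, between 0.52 and 1.17. Gm47313 and Gm47311, also of this type and opposite Hist2h2aa1 and Hist2h2aa2, held 0 counts and are not shown. The plot also leaves out the tested rows of other types opposite H2A genes, which had log2 fold changes at day 5 of 0.08 (Aifm2) to 0.47 (Gm20632).

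Genes that act with new H2A were counted on both strands. Of genes active while a cell copies its DNA, among them copying enzymes and cyclins, 0 of 12 tested own rows were called by edgeR at day 5. Of these own rows, 2 had an unadjusted p under 0.05 in edgeR, 1 was called by DESeq2 and 1 by limma-voom. By edgeR, 1 of 11 tested opposite rows rose, where 1.33% of rows opposite protein-coding genes were called. The opposite row was Gm10143, opposite Fen1, the nuclease that trims Okazaki fragments, at 253 ± 21.2 CPM at day 5 and 159.9 ± 27.4 CPM in vehicle (SD, n = 4 each; log2 fold change 0.66, edgeR adjusted p 0.0384). The call was lost without any 1 of vehicle replicates 2, 4 and 6 or of the 4 day 5 replicates, with log2 fold changes of 0.56 to 0.73 and edgeR adjusted p of 0.0518 to 0.146. The median of the 11 opposite rows was 0.29, and their summed level was 1034 to 1106 CPM at day 5, 740.1 to 927 CPM at day 10 and 761 to 938 CPM in vehicle. Many of the 11, such as Cops6, Exosc9 and Ap4m1, are named genes themselves, and Ap4m1 alone averaged 508 CPM at day 5. Without the strand setting, their counts cannot be assigned to them or to the genes opposite.

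Mitosis genes were also read on both strands. At day 5, 3 of 5 tested opposite rows rose and none fell, where 1.33% of rows opposite protein-coding genes were called, and the median log2 fold change was 1.02, while 0 of 7 tested own rows were called by edgeR (1 at an unadjusted p under 0.05, 1 by DESeq2 and 1 by limma-voom). That own row was Prc1, at 71.3 ± 15.05 CPM at day 5 and 112 ± 18.2 CPM in vehicle (SD, n = 4 each; log2 fold change -0.65, edgeR adjusted p 0.0680, DESeq2 and limma-voom below the threshold of 0.05), opposite in sign to Rccd1 on its other strand. Cdc23, opposite the spindle kinesin Kif20a, averaged 72.2 ± 10.4 CPM at day 5 and 35.6 ± 5.22 CPM in vehicle (log2 fold change 1.02, edgeR adjusted p 0.0198). Lcorl, opposite the condensin subunit Ncapg, had 32.9 ± 2.64 CPM at day 5 and 14.6 ± 3.32 CPM in vehicle (log2 fold change 1.19, edgeR adjusted p 0.0198). Rccd1, opposite Prc1, which bundles microtubules at the midzone, had 126 ± 12.0 CPM at day 5 and 68.6 ± 10.5 CPM in vehicle (log2 fold change 0.88, edgeR adjusted p 0.0107; SD, n = 4 throughout). Cdc23, Lcorl and Rccd1 are named genes themselves. Without the strand setting, their counts cannot be assigned to them or to the mitosis genes opposite. Of these 3 calls, 1 or more did not hold without vehicle replicate 2, 4 or 6 or day 5 replicate 5, 6 or 8, with edgeR adjusted p of 0.0525 to 0.0909. At day 10, 0 of the 5 opposite rows were called against vehicle by edgeR, DESeq2 or limma-voom or at an unadjusted p under 0.05, and of the 7 own rows 1 fell, Ncapg, at 32.8 ± 20.8 CPM at day 10 and 63.0 ± 6.67 CPM in vehicle (log2 fold change -0.91, edgeR adjusted p 0.0348). In that comparison 7.08% of all tested rows were called.

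Genes that make and process histone messages were not called at day 5, with 0 of 13 own rows and 0 of 9 opposite rows by edgeR, DESeq2 or limma-voom, and 2 of each at an unadjusted p under 0.05 in edgeR. At day 10, Npat, the coactivator of histone gene transcription, fell in its own row, at 25.9 ± 9.68 CPM against 46.0 ± 3.89 CPM in vehicle (SD, n = 4 each; log2 fold change -0.82, edgeR adjusted p 0.0250). Of the 9 opposite rows 1 fell at day 10, Nox1, itself a named gene, opposite the cleavage factor Cstf2 (log2 fold change -0.89, edgeR adjusted p 0.0268). Also at day 10, 2 of 12 own rows of genes active while DNA is copied fell. These were the clamp loader subunit Rfc4 (log2 fold change -1.03, edgeR adjusted p 0.0167) and cyclin E2, Ccne2 (log2 fold change -0.86, edgeR adjusted p 0.00608). At day 10 against vehicle, 7.08% of all tested rows and 12.8% of rows opposite protein-coding genes were called in either direction. Beside these shares, 1 of 13 own rows and 1 of 9 opposite rows of histone message genes, and these 2 of 12, are few calls to read. After the GC correction Npat, Nox1, Rfc4, Ccne2 and Ncapg all missed the threshold, with log2 fold changes of -0.76 to -0.41 and edgeR adjusted p of 0.0833 to 0.229. With the share of CT010467.2 in the fit the edgeR adjusted p of each was 0.999. Ncapg was also lost without any 1 vehicle library or day 10 replicate 2, 3 or 5, Npat without vehicle replicate 2, 4 or 6 or day 10 replicate 2, 3 or 5, Nox1 without vehicle replicate 2 or 6 or day 10 replicate 2 or 5, and Rfc4 without vehicle replicate 2 or day 10 replicate 3 or 5, with edgeR adjusted p of 0.0512 to 0.140 over these.

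Markers of other cell types were measured beside the H2A rows. For skeletal muscle, 1 of 5 tested opposite rows was called at day 5, Gm48752 opposite Mybpc1 (log2 fold change 2.19, edgeR adjusted p 0.0344), with a median of 3.13 and all 5 above 0. DESeq2 and limma-voom called 0 of the 5, and in edgeR the call of Gm48752 was lost without any 1 of vehicle replicates 2, 4 and 6 or day 5 replicates 5, 6 and 8 (1.59 to 2.44, edgeR adjusted p 0.0515 to 0.146). Of 3 tested own rows of muscle genes, 0 were called at day 5 by edgeR, DESeq2 or limma-voom and 2 had an unadjusted p under 0.05 in edgeR, Ckm (log2 fold change 0.65) and Atp2a1 (-0.39). The summed level of the 5 opposite rows was 28.5 to 2114 CPM at day 5, 45.8 to 1309 CPM at day 10 and 25.7 to 239 CPM in vehicle. For basal cells, 1 of 4 opposite rows was called, Gm44323 opposite the keratin gene Krt5 (log2 fold change 0.94, edgeR adjusted p 0.0469). It too was lost without any 1 of vehicle replicates 2, 5 and 6, day 5 replicates 5, 6 and 8 or day 10 replicates 3 and 5 (0.66 to 1.02, edgeR adjusted p 0.0511 to 0.211). Of 5 tested own rows of basal cell genes, 0 were called at day 5 by edgeR, DESeq2 or limma-voom or at an unadjusted p under 0.05, with a log2 fold change of 0.012 for Krt5. The 4 opposite rows of basal cell genes had sums of 1187 to 2006 CPM at day 5, 1384 to 1771 CPM at day 10 and 992 to 1319 CPM in vehicle. For globose basal cells, the dividing precursors of olfactory neurons, 0 of 4 own rows were called by edgeR, DESeq2 or limma-voom (1 at an unadjusted p under 0.05 in edgeR), the median was 0.64, and the sums were 33.2 to 67.0 CPM at day 5, 23.4 to 45.8 CPM at day 10 and 22.8 to 39.4 CPM in vehicle. No row of these 3 lists was at 0 in all 12 libraries. Lists for olfactory neurons and for ciliated, secretory, erythroid, neutrophil and lymphocyte cells had 0 edgeR calls at day 5 on either strand. Of 7 ciliated own rows, 4 had an unadjusted p under 0.05 in edgeR, and DESeq2 called 1 of 7 secretory own rows. For erythroid and lymphocyte genes only 2 and 1 own rows could be tested. The part of any of these cells in the level of the H2A rows was not tested.

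Of 10062 rows compared by Pearson correlation of log2 CPM with the mean of the 8 rows over the 12 libraries, 4930481A15Rik was the most alike (r = 0.95). D430001F17Rik, opposite the ATP synthase gene Atp5o, followed (r = 0.94), and Lcorl, opposite Ncapg, came after it (r = 0.93). Mmp24, opposite BC029722, and Armc7 were the last of 5 (r = 0.93 and 0.92). They were picked by likeness to rows chosen for their day 5 level, so their own higher day 5 levels restate the choice.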

How the data were processed

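Gene counts were deposited for 12 nasal libraries. The unit is whole-number counts, which the authors made with FastQC, Trim Galore, STAR and HTSeq on mm10, per the submitters' processing notes. The sources used here give no tool versions, annotation release or strand setting, nor how reads with several matches were treated.

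Positions were taken from GENCODE M21 with bedtools 2.31.1, and a row counted as opposite where its exons and those of another gene, on different strands, shared 50 bases or more. Of 55487 rows, 13181 passed filterByExpr. Libraries were scaled by TMM, and edgeR 4.0.16 (R 4.3.3) fitted all 12 libraries by group alone and gave quasi-likelihood p-values, adjusted by Benjamini-Hochberg over the 13181 rows. A row was called at an adjusted p under 0.05. Errors beside means are SDs of CPM (counts over the TMM-scaled library size), SEs were worked out from the F statistic, and intervals are 95%. Depth ran from 1658420 to 3227138 counts, so 3 counts were 0.930 to 1.81 CPM of the unscaled totals. Replicates differed by 3.17 to 22.4 times the variance of counting alone. The labels do not say that each library came from its own animal, so the p-values rest on the spread among libraries, which may be technical.

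The 8 rows and all gene lists were chosen with earlier results of these data known. Named besides the 8 rows were own rows of their genes, other H2A rows, paired H2B genes, up to 4 called rows of a list by smallest p, and the 5 rows most alike whose average log2 CPM was 3 or more. Alternatives were limma 3.58.1 and DESeq2 1.42.0, other scalings and filters, a replicate block, a GC correction (loess, span 0.5), the CT010467.2 share in the model and leaving out libraries. The fit was tested on simulated data.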

Additional observations from a re-analysis of the deposited data

Results flagged for a closer look

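A difference between day 5 and day 10, tested as day 10 minus day 5 in the same edgeR fit, drew attention to 4 rows opposite H2A genes outside Hist1. The log2 difference was -0.73 for Gm20632, opposite Hist2h2aa2 (edgeR adjusted p 0.00578), and -0.72 for its twin Gm20633, opposite Hist2h2aa1 (edgeR adjusted p 0.0116). Gm44313, opposite Hist3h2a, had -0.67 (edgeR adjusted p 0.00565), and Gm44335, opposite H2afx, had -0.57 (edgeR adjusted p 0.0344). Gm20632 averaged 127 ± 24.6 CPM at day 10 and 211 ± 35.5 CPM at day 5, and Gm20633 averaged 119 ± 26.8 CPM at day 10 and 195 ± 18.8 CPM at day 5 (SD, n = 4 each). All 4 calls were lost when the share of CT010467.2 entered the fit, with log2 differences of -0.49 for Gm20632, -0.51 for Gm20633, -0.85 for Gm44313 and -0.82 for Gm44335 and edgeR adjusted p of 0.153 to 0.443. Gm44335 was also lost without any 1 of day 5 replicates 5, 6 and 8 or day 10 replicates 2 and 3 (-0.58 to -0.50, edgeR adjusted p 0.0779 to 0.108), and Gm20633 without day 10 replicate 5 (-0.62, edgeR adjusted p 0.0564).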

How the results depend on the processing

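At day 5 against vehicle, each of the 8 rows kept a log2 fold change above 0 under every alternative that gave it a value, and their median ran from 1.23 to 1.52 with 1 library left out. The count of the 8 rows called then was 2 with the replicate block and 2 to 7 with 1 library left out, against 6. DESeq2 gave no adjusted p for 4 of the 8 there. At day 10 against vehicle the 1 call (Gm44297) was 0 under the CT010467.2 covariate, the GC correction, the 8 compared libraries alone, day 10 replicate 1 as the sole library of its group (assumed to vary like the other groups) and limma-voom, and 0 to 1 with 1 library left out. At day 10 against day 5 the count of 7 was 1 with the replicate block, 1 with the covariate, 0 with the sole day 10 library and 6 to 7 with 1 library left out, while the median of -1.23 was -1.49 after the GC correction and -1.36 to -1.11 with 1 library left out. Own rows of Hist1 H2A genes gave 0 calls under all alternatives.

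Over all tested rows, 933 calls at day 10 against vehicle became 1701 with the replicate block, 0 with the covariate, 408 after the GC correction, 423 from the 8 libraries alone, 0 with the sole day 10 library and 95 to 2684 with 1 library left out. At day 5 against vehicle, 87 calls became 278 with no filter, 135 with the filter of 10 CPM, 33 with the block, 370 with the covariate, 656 from the 8 libraries alone, 514 by DESeq2, 284 by limma-voom and 5 (without day 5 replicate 5) to 569 (without day 10 replicate 1) with 1 library left out. At day 10 against day 5, 1337 calls became 2 with the covariate, 0 with the sole day 10 library and 623 to 2689 with 1 library left out.

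Some signs turned, mostly at day 10 against vehicle. With the covariate, log2 fold changes were -0.20 for Gm44454, 0.032 for Gm44350, 0.17 for Gm44346, 0.33 for Gm44486 and 0.042 for Ncapg. After the GC correction they were -0.30 for Gm44454, -0.29 for Gm44484 and -0.16 for Gm44394. With the sole day 10 library they were -0.17 for Gm44454, 0.29 for Gm44350, 0.42 for Gm44486, 0.032 for Gm44367 and 0.013 for Ncapg. With the replicate block they were 0.025 for Gm44346 and -0.28 for Gm44394, and -0.17 for H2ac8 at day 5. With 1 library left out the ranges were -0.19 to 0.13 for Gm44346, -0.34 to 0.020 for Gm44350, -0.055 to 0.65 for Gm44394, -0.011 to 0.19 for Gm44454, -0.032 to 0.20 for Gm44484, and -0.033 to 0.24 for H2ac8 at day 5. The cause of these changes was not tested. Libraries that share a replicate number had deviations from group means that correlated at -0.09 to 0.12 over 5 pairs, and the labels do not say what the numbers share, so the numbers were not taken to pair the libraries. With the block, Cdc23, Lcorl and Rccd1 were not called at day 5 (log2 fold changes of 0.69 to 0.93, edgeR adjusted p 0.139 to 0.243), nor Rfc4 at day 10 (edgeR adjusted p 0.0801), nor, at day 10 against day 5, Gm44335, Gm44313 and Gm20633 (edgeR adjusted p 0.392, 0.223 and 0.0645). With few counts in the own rows of Hist1 H2A genes, depth limits what can be said of that strand.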

Other observations

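Small counts in the table were uneven. Over all rows and libraries, the value 2 was 2.30 times as frequent as the value 3, with 28595 and 12423 entries, and own rows of Hist1 H2A genes lie in this range. The value 1 had 33265 entries, more than the value 2. Over the values 1 to 10, 49.8% were even, and of the values above 20, 49.6% were even.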
